A study of Homo sapiens with 2 samples.

Results

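Mitochondrial ribosomal proteins are encoded in the nucleus under symbols that start with MRPL, for the large subunit, or MRPS, for the small subunit. Single gene symbols were first replaced by the RefSeq symbol of their gene identifier, where RefSeq listed it. All probe sets that then carried exactly 1 gene symbol of the MRPL or MRPS form were taken, 142 of the 54675 probe sets on the array. They represent 77 gene symbols among 19775. Of these, MRPL45P2 is a pseudogene and MRPL20-AS1 an antisense RNA, and both are given apart. The remaining 140 probe sets stand for 75 protein genes, 48 of the large subunit (83 probe sets) and 27 of the small subunit (57 probe sets). Another 4 probe sets pair an MRPL or MRPS symbol with a second gene and were not used. MRPS24 and MRPL53 are found only on such shared probe sets, so they have no value here, and MRPS36 was not analysed here.

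The cells were PLC/PRF/5, a long-established line from a human hepatocellular carcinoma, and each group had 1 array. Chemoresistant hepatospheres were tumour spheroids exposed to cisplatin, which crosslinks DNA, combined with doxorubicin, which poisons topoisomerase II. Differentiated cells were made by giving fetal bovine serum to spheroids and letting them attach to the dish. Whether the spheroids that were differentiated had met the drugs is not stated in the labels, nor is a duration or dose. Drug, serum and attachment cannot be told apart in this design, and with no replicate no difference carries an error or a test. In bulk RNA a change in the mixture of cells cannot be told apart from a change per cell.

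The mitochondrial ribosome translates a small set of messages made from mitochondrial DNA, all of which encode subunits of the respiratory chain and ATP synthase. Its RNAs come from mitochondrial DNA, while its proteins are made in the cytosol and imported. Part of the proteins have bacterial counterparts and part are found only in mitochondrial ribosomes. The small subunit reads the message and the large subunit joins the amino acids, releasing the chain through an exit tunnel at the inner membrane, and hepatocytes are rich in mitochondria.

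Values are MAS5 signals, the brightness of a probe set on a linear scale after each array was scaled as a whole. Each gene is given by its brightest probe set (by mean log2 signal), and a difference is the log2 signal in hepatospheres minus that in differentiated cells. The floor was 84.1 signal units, the higher of the array medians, and 12766 genes that reached it on at least 1 array were compared. All 75 protein genes lay above the floor on both arrays, the lowest at 633. Signals of different genes are not set against each other, because brightness depends on the probe as well as on the RNA.

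Several facts of the arrays bear on every value. The 24 poly(A) control probe sets, which read RNA spiked into each sample, were brighter in hepatospheres by a median of 1.03 on the log2 scale, 2.04-fold. The signal ratio of 3' to 5' probes, a sign of RNA integrity, was 1.48 for ACTB in differentiated cells and 2.64 in hepatospheres, against 0.987 and 1.04 for GAPDH. Liver genes marked both arrays, with all 12 measured hepatocyte markers above the floor, 8 higher and 4 lower in hepatospheres. Albumin (ALB) read 10276 and 27887 and transthyretin (TTR) was 5.62-fold higher, while AFP was 5.66-fold lower and the keratin KRT8 2.16-fold lower. Of 6 fibroblast markers, 4 reached the floor and all 4 were higher in hepatospheres. The summed signal of the 6 was 421 in differentiated cells and 4030 in hepatospheres, led by LUM at 1.14 and 2677, while COL1A2 and PDGFRA stayed below the floor. Of 5 endothelial markers PECAM1 alone reached the floor, at 3388 and 3787 (sums of 3458 and 3862). Of 4 leukocyte markers ITGAM alone did, at 122 in differentiated cells (sums of 254 and 165), and PTPRC read 25.1 and 4.38. The part of any of these in the results below was not tested.

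Mitochondrial ribosomal protein genes were mostly lower in hepatospheres. Of 75 genes, 60 lay below 0, and the median difference was -0.43 against 0.05 for all genes compared, of which 47.3% lay below 0. At least 1.5-fold lower were 32 of the 75, or 42.7%, where 20.3% of all genes were that much lower. At least 1.5-fold higher were 2 of the 75, against 23.6% of all genes. At 2-fold the picture was less distinct, with 8 members lower (10.7%, against 8.83% of all genes) and 0 higher (against 12.5%). Most differences were thus modest in size, with 60 members below 0 and 15 above. The direction of the 15 members above 0 depended on the scaling: all 75 lay below 0 when the arrays were scaled to the poly(A) controls, which lowers the median of all genes to -0.93. A comparison added after the data were seen took the 5476 genes that cleared the floor on each array within the members' own range of mean signal. Of these 5476, 25.2% were at least 1.5-fold lower, 10.5% at least 2-fold lower and 55.7% below 0, with a median of -0.10. In the other direction, 18.4% were at least 1.5-fold higher and 9.48% at least 2-fold higher.

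**Figure D1:**
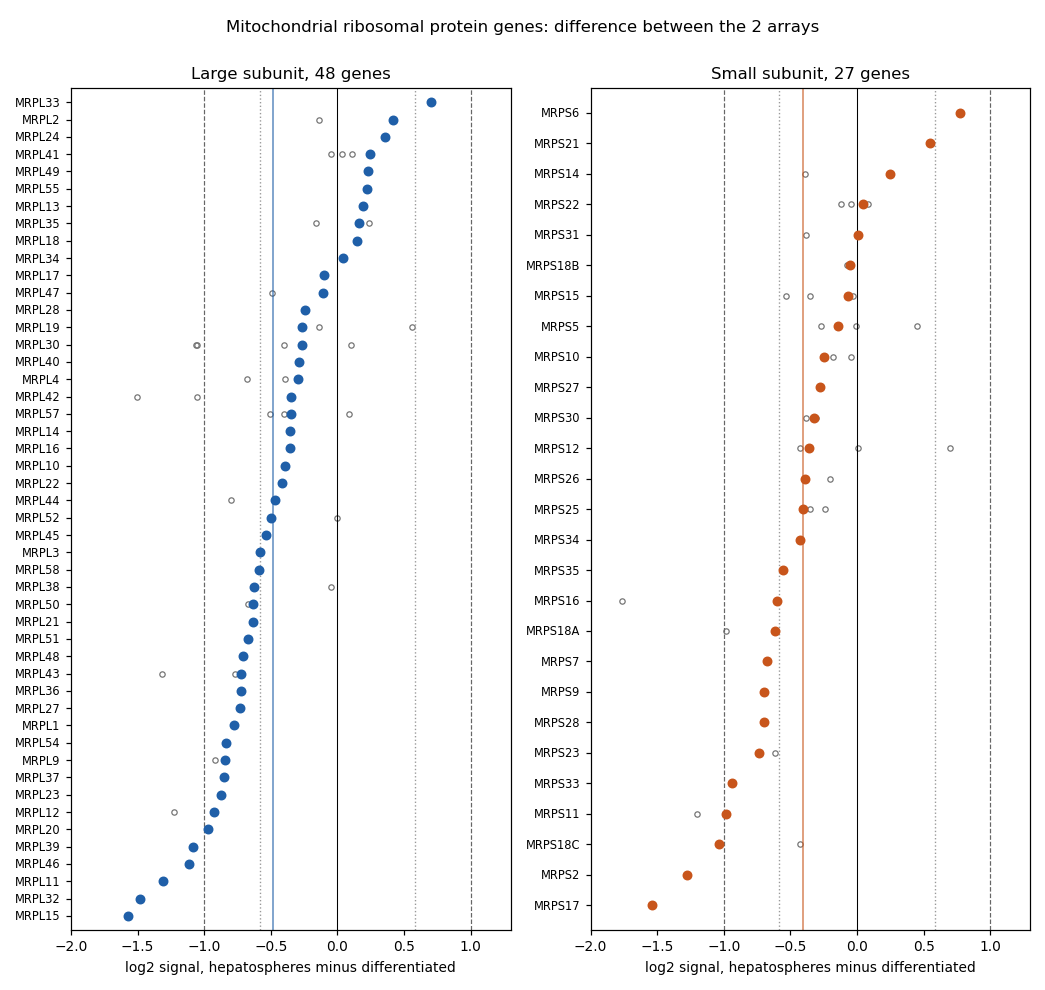
Difference in log2 signal (hepatospheres minus differentiated cells) of each mitochondrial ribosomal protein gene, large subunit on the left and small subunit on the right, each in order of size. Filled points are the brightest probe set of a gene, open points its other probe sets that reached the floor, dotted lines 1.5-fold, dashed lines 2-fold and the coloured line the subunit's median; 38 of 48 large and 22 of 27 small subunit genes lie left of 0.

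The subunits as wholes differed little. The median difference was -0.48 for the large subunit and -0.40 for the small subunit, which leaves -0.08 between them (large minus small). The interquartile range of the large subunit genes ran from -0.74 to -0.21 and that of the small subunit from -0.70 to -0.10, so the distributions covered nearly the same range. At least 1.5-fold lower were 21 of 48 large subunit genes (43.8%) and 11 of 27 small subunit genes (40.7%). At least 2-fold lower were 5 and 3. The sign of the small gap was not stable: when a gene's probe sets were averaged it was 0.031. MRPS18A and MRPS30 carry small subunit names but sit in the large subunit of the human particle, and moving them there left the gap at -0.08.

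In the small subunit, MRPS17 had the lowest difference. Its signal was 7783 in differentiated cells against 2678 in hepatospheres, 2.91-fold lower. MRPS2, which sits on the back of the subunit, read 1536 and 633, 2.43-fold lower. MRPS18C, 1 of 3 related proteins of the MRPS18 family, read 6521 and 3179, 2.05-fold lower. These 3 made up the small subunit genes past 2-fold. MRPS11, a protein of the platform, followed at 4348 and 2202 (1.97-fold lower), and MRPS33 at 4098 and 2139 (1.92-fold lower). MRPS23, MRPS28, MRPS9, MRPS7, MRPS18A and MRPS16 lay between -0.74 and -0.60. MRPS12, which lines the decoding centre, stood closer to 0 at -0.36, from 9806 to 7636. MRPS15 read 11064 and 10574, a difference of -0.07.

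A few small subunit genes went the other way. MRPS6 had the highest difference of all 75 members, at 6165 in differentiated cells against 10518 (1.71-fold higher). MRPS21 read 7352 and 10753, 1.46-fold higher. MRPS14 stood at 0.25, but only on its brightest probe set, since the other, at 176 and 134, stood at -0.39. MRPS22, a gene in which mutations cause a respiratory chain disorder, read 3843 and 3963, and its 4 probe sets spanned only -0.12 to 0.08. MRPS31 was level at 1317 and 1322 on its brightest probe set, while another, at 916 and 701, stood at -0.39.

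The MRPS18 family shows how far related subunits could part. MRPS18C was 2.05-fold lower, as given above. MRPS18A, the member built into the large subunit, read 2387 and 1556 (1.53-fold lower), with its other probe set at -0.98. MRPS18B read 4377 and 4220, a difference of -0.05, and its other probe set at -0.07. The order from lowest to highest was therefore C, A and B on the brightest probe sets, and this order rests on 1 array per group. Of the dimmer probe sets of MRPS18C, 1 stood at -0.43 (113 in differentiated cells and below the floor in hepatospheres) and 1 was below the floor on both arrays. MRPS30, the other protein of the large subunit under a small subunit name, read 2710 and 2169 (-0.32), and its 3 probe sets spanned -0.38 to -0.31.

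In the large subunit, MRPL15 was lowest of all members, at 10243 in differentiated cells and 3440 in hepatospheres, 2.98-fold lower. MRPL32, whose maturation by an inner membrane protease is a step of ribosome assembly, read 10694 and 3828, 2.79-fold lower. MRPL11, at the base of the stalk where translation factors dock, read 6810 and 2744, 2.48-fold lower. These 3 genes each have 1 probe set, so no second probe bears on them. MRPL46, of the central protuberance, read 3942 and 1825, 2.16-fold lower. MRPL39 read 4037 and 1899, 2.13-fold lower, while its second probe set missed the floor on both arrays, and the average of both probe sets stood at 0.16.

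Next to MRPL11, the stalk proteins themselves were unequal. MRPL12, the stalk protein that touches the elongation factors, read 5535 and 2917 (1.90-fold lower), with its second probe set at -1.22. MRPL10, which anchors MRPL12, read 2894 and 2208 (1.31-fold lower). All 3 were lower, by sizes from -1.31 to -0.39. In the central protuberance, MRPL48, MRPL38, MRPL58, MRPL40 and MRPL18 stood at -0.71, -0.62, -0.59, -0.29 and 0.15. MRPL58, which descends from a release factor and can free stalled chains, read 3817 and 2534. Around the exit tunnel, MRPL23 stood at -0.88, MRPL45, which tethers the ribosome to the inner membrane, at -0.54, MRPL44 at -0.47, MRPL22 at -0.41 and MRPL17 at -0.10. MRPL24, also at the tunnel exit, stood above 0 at 0.36, from 1728 to 2219.

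MRPL20 read 8371 and 4274, 1.96-fold lower, and MRPL23 read 10519 and 5728, 1.84-fold lower, though 0.20 when averaged with a second probe set below the floor. MRPL37 (1.81-fold), MRPL9 (1.80-fold), MRPL54 (1.78-fold) and MRPL1 (1.71-fold) were lower by similar sizes. Together with MRPL36, MRPL27, MRPL43, MRPL51, MRPL21 and MRPL50 they lay between -0.97 and -0.63. Genes chosen for a high mean signal were MRPL51 at 19284 and 12105 (1.59-fold lower), MRPL57 at 13301 and 10424 (1.28-fold lower), MRPL3 at 12867 and 8606 (1.49-fold lower) and MRPL36 at 12699 and 7671 (1.66-fold lower). All 4 were lower. Of the small subunit genes named by the same rule, MRPS15 and MRPS12 were below 0, and MRPS21 and MRPS6 above.

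MRPL33 had the highest difference in the large subunit. Its signals were 5596 for differentiated cells and 9130 for hepatospheres, 1.63-fold higher, and with MRPS6 it makes up the members past 1.5-fold in that direction. MRPL2, near the catalytic centre, read 700.5 and 937, 1.34-fold higher, but its second probe set read 599 and 545, slightly lower. The other large subunit genes above 0 were MRPL41, MRPL49, MRPL55, MRPL13, MRPL35, MRPL18 and MRPL34, between 0.04 and 0.24. Those below 0 but within 1.5-fold and not named so far were MRPL52, MRPL16, MRPL14, MRPL42, MRPL4, MRPL30, MRPL19, MRPL28 and MRPL47, between -0.50 and -0.11. In the small subunit they were MRPS35, MRPS34, MRPS25, MRPS26, MRPS27, MRPS10 and MRPS5, between -0.56 and -0.14. The antisense RNA MRPL20-AS1 read 634 and 475 (-0.42), and the pseudogene MRPL45P2 lay far below the floor at 8.02 and 10.6.

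**Figure D2:**
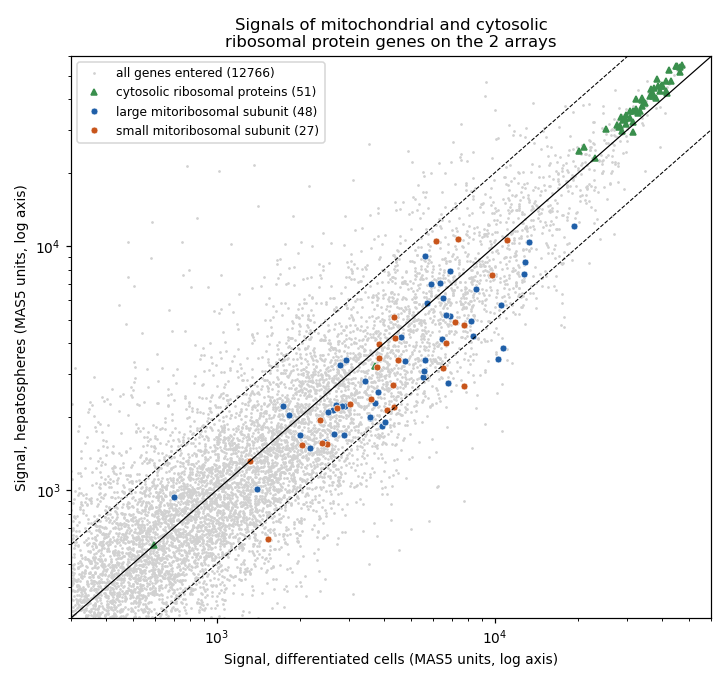
MAS5 signal of genes in differentiated cells (horizontal) and hepatospheres (vertical), both on log axes that start above the dimmest genes. The solid line marks equal signal and the dashed lines 2-fold; mitochondrial ribosomal protein genes of both subunits lie mostly below the solid line, and cytosolic ribosomal protein genes mostly just above it.

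Different probe sets of a gene share the array and the RNA and are not replicates, but they show how far a value depends on the probe. Of 37 genes with several probe sets, 32 had at least 2 that reached the floor. In 21 of these 32 all were lower in hepatospheres, in 11 they went both ways, and in 0 were all higher. The median spread within a gene was 0.39. The probe sets of MRPL30, MRPS16, MRPL42 and MRPS12 lay over 1 apart. MRPS16, mutated in an inherited defect of mitochondrial translation, stood at -0.60 on one and -1.77 on the other, which read 1807 and 532. MRPL42 ranged from -1.50 to -0.35 and MRPL30 from -1.06 to 0.10 over 5 probe sets. MRPS12 ranged from -0.43 to 0.70, the top value coming from a dim probe set at 131 and 213. Taken singly, 105 of the 130 member probe sets that reached the floor were lower and 25 higher, with a median of -0.39, and 10 of the 140 lay below it on both arrays.

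Origin was not used to choose the members. The 45 proteins with a bacterial counterpart had a median of -0.36 and spread widely, from -1.57 to 0.77 (SD 0.59 across genes). The 30 found only in mitochondrial ribosomes had a median of -0.52 and a tighter range, from -1.11 to 0.24 (SD 0.34 across genes). At least 1.5-fold lower were 19 of the 45 (42.2%) and 13 of the 30 (43.3%), so the shares were alike. Within these classes, with MRPS18A and MRPS30 counted in the large subunit, the subunits parted in opposite ways. Proteins with bacterial counterparts had medians of -0.35 in the large subunit (11 of 30 at least 1.5-fold lower) and -0.60 in the small (8 of 15). Mitochondria-specific proteins had -0.60 in the large (11 of 20) and -0.40 in the small (2 of 10). These are small groups with no test. Both genes at least 1.5-fold higher, MRPS6 and MRPL33, have bacterial counterparts, as do 45 of all 75 members.

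Some members share a promoter region with a gene read in the opposite direction. Promoter windows from RefSeq (GRCh38.p14), 250 bases before to 50 after each start, were found for 67 of the 75 genes. The windows of 23 members overlapped that of a gene on the other strand, in 22 distinct pairs. The only pair of 2 members was MRPL46 with MRPS11, which were 2.16-fold and 1.97-fold lower. Of 15 partners that are no members and were measured, 10 were lower, 4 of them at least 1.5-fold, and 1 was at least 1.5-fold higher, with a median of -0.28. The 4 of 15 stand against 20.3% of all genes, so their share is near the background. MRPL32 shares its region with PSMA2, a subunit of the proteasome core, which read 12935 and 6068 (-1.09). MRPS18C shares it with HELQ, a DNA repair helicase, at 378 and 181 (-1.06). MRPS2 shares it with PIERCE1, a ciliary gene, at 749 and 346 (-1.11). In these 4 pairs both genes were near or past 2-fold lower. MRPL49 and FAU, which encodes a protein of the cytosolic small subunit, were both slightly higher (0.23 and 0.17). MRPL57, at -0.35, was also paired with a lower gene, the kinetochore gene SKA3 at -1.63, while in another pair directions parted, with MRPL50 at -0.63 beside ZNF189 at 0.27. Selecting these pairs followed a look at the values, so they describe and do not test.

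In 12 of the 16 measured pairs both genes went the same way. For scale, 80% of members and 47.3% of all genes lay below 0, and whether shared regions add to the agreement was not tested. The bases between the starts are shown for 5 of these 12, so for no pair that parted. They are the 4 pairs near or past 2-fold lower in both genes, and MRPL49 with FAU as a pair that joins both ribosomes. Each is read on the strand of the second gene named, whose start lies just past the right end, from chr15:88467458-88467707, chr7:42932175-42932375, chr4:83455884-83456057, chr9:135499870-135499964 and chr11:65122135-65122182 of GRCh38.p14, all plus strand. Of the 319 bases between MRPL46 and MRPS11 the 250 nearest to MRPS11 are given, and the other regions are whole, at 201, 174, 95 and 48 bases. Capitals mark the NRF1 core GCATGCGC, or its reverse complement.
MRPL46 and MRPS11: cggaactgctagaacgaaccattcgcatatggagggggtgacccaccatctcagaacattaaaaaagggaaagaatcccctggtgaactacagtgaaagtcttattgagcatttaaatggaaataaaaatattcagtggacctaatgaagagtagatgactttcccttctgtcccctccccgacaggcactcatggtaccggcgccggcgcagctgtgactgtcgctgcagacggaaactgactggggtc
PSMA2 and MRPL32: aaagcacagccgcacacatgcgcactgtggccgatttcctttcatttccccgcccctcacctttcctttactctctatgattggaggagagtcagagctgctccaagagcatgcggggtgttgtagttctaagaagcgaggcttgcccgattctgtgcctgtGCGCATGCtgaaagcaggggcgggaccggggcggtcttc
HELQ and MRPS18C: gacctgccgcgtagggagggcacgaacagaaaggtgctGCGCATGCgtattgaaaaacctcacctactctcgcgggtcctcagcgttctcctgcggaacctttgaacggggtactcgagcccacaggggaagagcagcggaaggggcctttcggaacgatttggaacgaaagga
PIERCE1 and MRPS2: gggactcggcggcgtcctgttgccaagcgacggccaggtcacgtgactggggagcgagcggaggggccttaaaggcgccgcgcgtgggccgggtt
FAU and MRPL49: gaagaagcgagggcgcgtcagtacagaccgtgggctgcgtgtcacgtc

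NRF1 and the ETS family factor GABP are known regulators of nuclear genes for mitochondrial proteins. The NRF1 core GCATGCGC was found on either strand in 6 of the 67 member promoters (8.96%) and in 3.68% of 27305 genes with a window of the same length. The ETS core CCGGAAG was found in 29 of 67 (43.3%) and in 12.2% of genes. The 27305 genes were not limited to the 12766 compared on the arrays. The shares thus set members that all passed the floor beside genes of any kind and level. The motifs do not overlap in letters and were counted apart, and MRPS18C and MRPL52 held both. In MRPL32 the NRF1 core began 39 bases before the start and in MRPS18C 136 bases before. Members with the ETS core had a median of -0.50 and those without it -0.41, and 13 of 29 and 15 of 38 were at least 1.5-fold lower. Members with the NRF1 core had a median of -0.46 and those without it -0.43, and 2 of 6 and 26 of 61 were at least 1.5-fold lower. The 2 were MRPL32 and MRPS18C, whose regions are shown above. Members with the NRF1 core ran from -1.48 (MRPL32) to -0.05 (MRPS18B), a span nearly as wide as that of all members below 0.

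Chromosome order was looked at for members with large differences, a comparison added after the data were seen. MRPS17 and MRPL32, both on chromosome 7, stood among low neighbours. Their 20 nearest genes compared had medians of -0.67 and -0.54, and 12 and 10 of these were at least 1.5-fold lower. Of all genes compared, 20.3% were that much lower. MRPL22, at -0.41, also had low neighbours, with a median of -0.55 and 10 of 20 at least 1.5-fold lower. MRPL15 and MRPL11, by contrast, had neighbour medians of -0.08 and -0.11, and MRPL46 one of 0.20. For MRPS2, MRPL39 and MRPS18C, also past 2-fold lower, the neighbour medians were -0.28, 0.04 and -0.09. MRPS21 and MRPL33, both higher, had neighbour medians of 0.56 and 0.43, whereas MRPS6 had 0.03. Neighbour medians as high were also found for members that were lower or level. These were MRPL3 at -0.58 (neighbours 0.54), MRPL19 at -0.26 (0.53) and MRPS31 at 0.006 (0.58). Over the 75 members, spread over 21 chromosomes, the median of these neighbour medians was 0.07, and 63 members were lower than their own neighbours' median.

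The subunits with names outside the series were lower too, by smaller sizes. PTCD3 read 2076 and 1567 (-0.41), CHCHD1 read 9558 and 7496 (-0.35), and GADD45GIP1 read 2140 and 1756 (-0.28). DAP3, a GTP-binding protein of the small subunit, read 4635 and 4385 (-0.08). None of the 4 was 1.5-fold apart, and AURKAIP1 had no probe set with a single symbol. The directions of GADD45GIP1 and DAP3 did not hold with the mean over probe sets, at 1.10 and 0.16.

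**Figure D3:**
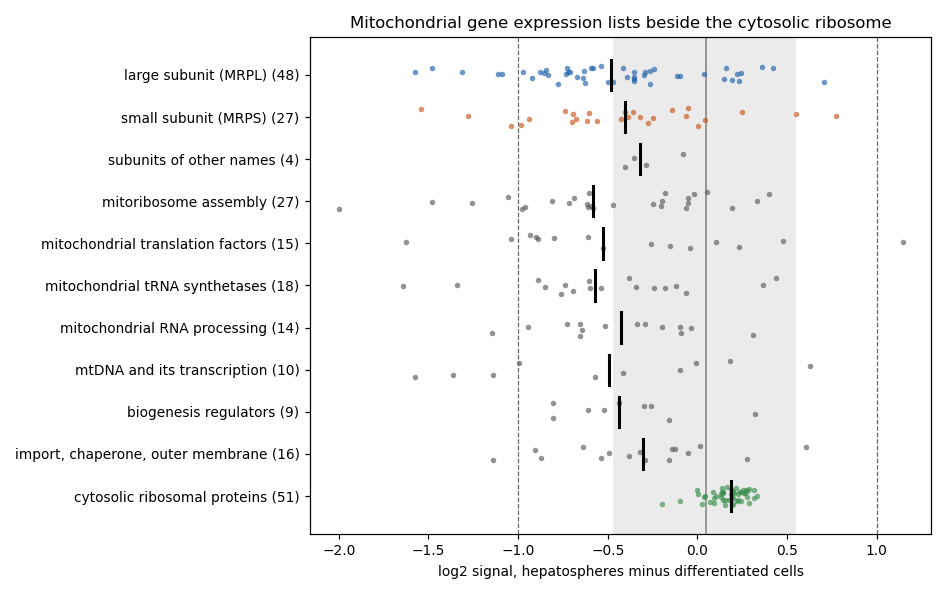
Difference in log2 signal of single genes (points, spread vertically for clarity) in each list, with the number of genes in brackets and the list's median as a black bar. The grey band is the interquartile range of all genes compared and the grey line their median of 0.05; the mitochondrial lists have medians between -0.58 and -0.30, and the cytosolic ribosomal proteins 0.19.

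Lists of genes that build, feed or use the mitochondrial ribosome also had medians below 0. Their counts of genes at least 1.5-fold lower and higher are to be read against 20.3% and 23.6% of all genes. The assembly list had 27 genes, 13 lower by at least 1.5-fold and 0 higher (median -0.58). RPUSD4, which modifies mitochondrial ribosomal RNA, had the lowest difference, from 2306 to 576, and the helicase DDX28, needed for the large subunit, read 550.2 and 197 (2.79-fold lower). At the other end were NGRN at 0.33 and the assembly GTPase MTG2 at 0.40, the latter -0.41 with the mean over probe sets. Among 15 translation factors 7 were lower by that much and 1 higher (median -0.52). The elongation factor GUF1 read 869 and 281 (3.09-fold lower), and TSFM, which recharges the elongation factor TUFM, read 2625 and 1279 (2.05-fold lower). GFM1 and the initiation factor MTIF2 stood at -0.89 and -0.80. TUFM itself was level at 0.10, MTIF3 stood at 0.48, and the release factor MTRF1, at a low 123 and 271, was 2.21-fold higher. TUFM and MTIF3 read -0.48 and -0.84 with the mean over probe sets.

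Upstream of translation, list medians were also below 0. Of 18 tRNA synthetase and amidotransferase genes of mitochondria, 9 were lower by 1.5-fold or more and 0 higher (median -0.57), with GATC at 2247 and 722 (3.11-fold lower), MARS2 at 455 and 179 (2.54-fold lower), VARS2 at 0.37 and PARS2 at 0.44. Of 14 RNA processing genes, 6 were that much lower and 0 higher (median -0.43), with TRMT10C and HSD17B10, partners in cutting out mitochondrial tRNAs, at -1.14 and -0.95, and SUPV3L1 and PRORP at -0.04 and 0.31. Of 10 genes for mitochondrial DNA and its transcription, 4 were lower and 1 higher (median -0.49, or -0.05 without probe sets marked as matching several transcripts). TFAM, which packages mitochondrial DNA and starts its transcription, read 2031 and 682 (2.98-fold lower), and the helicase TWNK read 1212 and 471 (2.57-fold lower). The polymerase genes POLRMT, POLG2 and POLG stood at -0.41, 0.18 and 0.63, POLG at -0.36 with the mean over probe sets.

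Of 9 regulators of mitochondrial biogenesis, 3 were lower to that degree and 0 higher (median -0.43), led by MYC at 3815 and 2185 and PPRC1 at 918 and 525, both at -0.80. NRF1 stood at -0.52, PPARGC1A at -0.43, GABPA at -0.26, YY1 at -0.16 and GABPB1 at 0.32. Several turned on the choice of probe set: averaged over probe sets, NRF1 stood at -0.07, PPARGC1A at 0.92, YY1 at 0.22 and GABPB1 at -0.41. Of 16 import, chaperone, porin and matrix genes taken as markers of mitochondrial content, 4 were lower (25%, near the 20.3% of all genes) and 1 higher (median -0.30), from the import receptor TOMM22 at -1.14 and citrate synthase (CS) at -0.90 to the porins VDAC1 at 0.28 and VDAC2 at 0.60.

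The cytosolic ribosome differed from the mitochondrial one in both size and spread. Of 76 listed cytosolic ribosomal protein genes 51 were measured, and of these 0 were 1.5-fold apart and 48 above 0. Their median was 0.19, and the mitochondrial median minus this one was -0.62. They ran only from RPL27A at -0.20 and RPL35A at -0.10 to RPS16 at 0.32 and RPL41 at 0.33, an SD across genes of 0.10, against 0.50 for the mitochondrial members. The sign depended on the scaling: their median was 0.00 after quantile normalization and -0.84 after scaling to the poly(A) controls, where the mitochondrial members stood at -0.43 and -1.46. Many cytosolic ribosomal protein signals were very high. RPL37A, for example, read 47270 and 55064. Whether such high signals narrowed the differences of these genes was not tested.

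**Figure D4:**
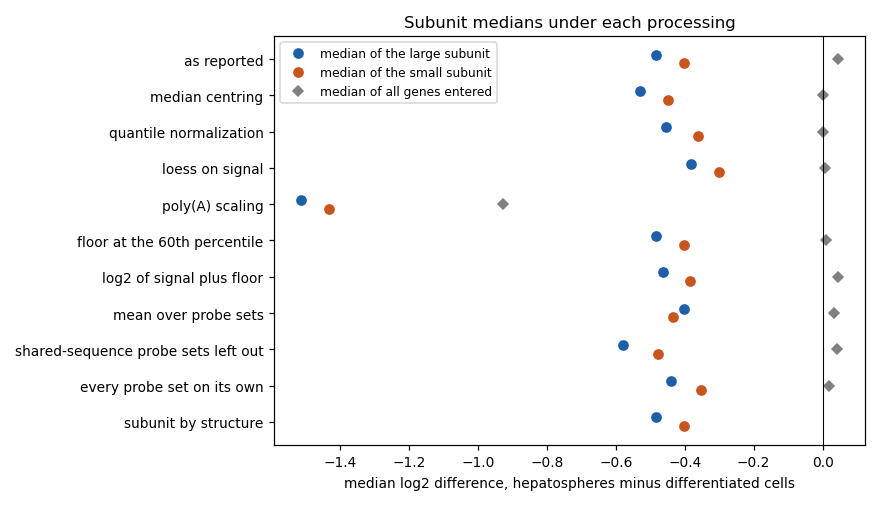
Median log2 difference of the large and the small subunit (points) and of all genes compared (diamonds, not drawn for the regrouping by structure) under each way of processing. The subunit medians lie between -0.58 and -0.30 except under scaling to the poly(A) controls, which also moves all genes, and they stay below the all-gene median wherever it is drawn.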

How the data were processed

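Each deposited file column holds intensity values on a linear scale, made by the authors with MAS5 per the submitters' processing notes. The MAS5 version and the target of its scaling are not stated in those sources. MAS5 scales each array as a whole, so differences hold relative to the bulk of genes. Probe sets were named through GEO's platform annotation, with gene identifiers looked up in a RefSeq table of GRCh38.p14. Signals below the floor (50th percentile) were set to it before log2. Members and lists were chosen with earlier results of these data known. All members could be named; from other lists the 2 lowest and 2 highest genes were named, with all subunits of other names and 10 regulators and factors. No test was possible with 1 array per group, and their number limits the precision. Classes by origin and structure follow the common ribosomal protein nomenclature. Alternatives changed the scaling (to the median, by quantiles, by loess with span 0.3, to the poly(A) controls), the floor (percentile 40 or 60, none, or added before log2), the choice of probe sets and the subunit of MRPS18A and MRPS30. The procedure was tested on simulated data in which the members were shifted by a known amount with little scatter. Such data check the calculation of the median and not the error of any difference. Python 3.11.15, numpy 2.4.6, pandas 2.3.3, statsmodels 0.14.6 and matplotlib 3.10.9 were used.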

Additional observations from a re-analysis of the deposited data

How the results depend on the processing

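No paired analysis was possible because each group has 1 array. No replicate could be left out for the same reason. With scaling to the poly(A) controls, which moves the median of all genes to -0.93, 72 members were at least 1.5-fold lower, 61 at least 2-fold lower and 0 at least 1.5-fold higher. The median of all members was then -1.46, of the large subunit -1.51 and of the small subunit -1.43, and MRPL33 and MRPS6 turned to -0.32 and -0.26. With loess on signal 5 members were 2-fold lower, with medians of -0.38 and -0.30 for the large and small subunit. With the mean over probe sets the large minus small gap was 0.031, and MRPL23 and MRPL39 turned to 0.20 and 0.16, each having a second probe set below the floor. Without probe sets whose names mark them as matching several transcripts, 41 members were left, 18 of them at least 1.5-fold lower, with a median of -0.53. Counting every probe set on its own, 16 were at least 2-fold lower. Under the 9 alternatives to single-gene values other than poly(A) scaling, 65 of 75 members kept their sign wherever measured. Of the 32 that were 1.5-fold lower 22 kept that size, as did both that were 1.5-fold higher. Changing the floor's percentile or dropping it could not move any member, since the lowest signal was 633 and the highest floor 153. Averaging could not move the 38 members with 1 probe set, and leaving out shared probe sets measured only 41. The other alternatives moved no count by over 1.5 times and no median by over 0.1.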
